A study of Mus musculus with 6 samples.

Results

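The serpins (serine protease inhibitors) of the mouse uterus in mid-pregnancy are described here. Members were taken by name: every row of the deposited expression table whose gene symbol starts with Serpin, which gave 64 of 24964 genes, and the clade is the letter after that stem. RNA was sequenced from mouse uterus on gestation day 13, in 3 libraries labelled control and 3 whose labels give a knockout, or deficiency, of myometrial PGR. PGR is the progesterone receptor, a nuclear receptor encoded by Pgr, and the myometrium is the smooth muscle wall of the uterus. The sources used here do not give the strain, the alleles of either group, the driver of the deletion or whether animals were pooled. The design compares uterine transcripts with and without that receptor in the muscle wall, as the labels state it.

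Most serpins trap a protease with an exposed reactive loop: the protease cuts the loop, the serpin refolds, and both stay locked together. Clade A holds secreted relatives of alpha-1-antitrypsin, clade B holds intracellular inhibitors that lack a classical signal peptide, and clade E holds the inhibitors of plasminogen activators. A few members inhibit no protease, such as the collagen chaperone Serpinh1 and the secreted factor Serpinf1. In the pregnant uterus serpins meet the proteases of tissue remodelling, blood clotting and immune cell granules.

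Values are FPKM, fragments on a gene scaled to gene length and library size, so levels can be set beside each other between genes. The libraries summed to between 357126 and 377091 FPKM. In low values of genes with a single annotated transcript, steps of 1 read gave a library size of between 36700000 and 36900000 reads in every column, which may be 1 common size used in the formula, so the depth of single libraries is not known from the table. At that size 3 reads on 1 kb are 0.0815 FPKM. Pgr itself stood at 9.72, 8.33 and 12.1 FPKM among controls, and its values in the other group were 11.3, 12.4 and 7.73 FPKM (exact two-sided permutation p = 0.9, where 0.1 is the smallest that 3 against 3 allows). It was therefore not lower where the label gives a deficiency, and the second group is called "labelled deficient". The deleted part of Pgr is not stated, and fragments outside it would check nothing. The labels confine the deficiency to the myometrium, while uterine libraries also hold other cells, and any Pgr RNA of those could not be told apart. Across tested genes, libraries 1 and 2 of each group correlated at 0.992 and 0.991, and the third library of each group at between 0.971 and 0.983 with its own group. Smooth muscle markers, which define the uterine wall, were abundant in all libraries, and the 10 trophoblast markers summed to at most 2.31 FPKM in any library, with Gcm1, Hand1 and Psg21 listed at 0. Whether each library is a separate animal is not labelled. The p-values then cover only the variation between libraries, which may be technical.

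Serpin transcripts made up between 0.340% and 0.473% of the summed FPKM of a library. Of the 64 genes, 16 averaged 1 FPKM or more, 35 lay below that and 13 were listed at 0 in every library. Just inside that limit stood Serpinb9b with a mean of 1.22 FPKM, and just outside it Serpina3i with 0.753 and Serpini1 with 0.718 FPKM. The 16 comprise 4 genes of clade A, 7 of clade B and members of clades E, F, G and H, while clades C, D and I had none. Serpina1e, Serpinh1, Serping1 and Serpinf1 had means over 100 FPKM and held between 79.9% and 87.7% of the family's sum. Serpina1e and Serpinh1 lead that order with means of 569 and 424 FPKM and values that overlap between them, and Serping1 (202 FPKM) and Serpinf1 (177 FPKM) follow, whose values also overlap. Serpinb6a, Serpina3n and Serpine2 had means of 59.7, 52.8 and 41.3 FPKM. Serpinb5 and Serpinb6b lay at 19.7 and 15.2 FPKM, and 6 members lay between 1 and 10 FPKM.

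**Figure D1:**
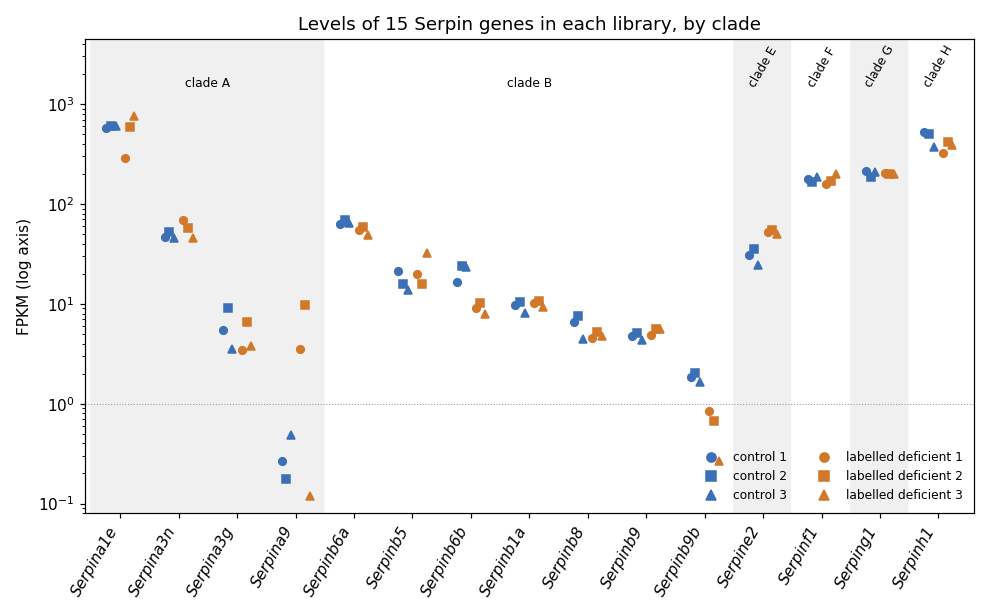
FPKM on a log axis for 15 of the 16 Serpin genes that averaged 1 FPKM or more, grouped by clade, with 1 point per library (blue, control; orange, labelled deficient; circle, square and triangle, libraries 1, 2 and 3). Serpinb6b and Serpinb9b are lower and Serpine2 is higher in every labelled deficient library than in every control, and Serpina9 runs from 0.118 to 9.70 FPKM.

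Against the controls, 3 of the 16 tested members passed. Serpinb6b and Serpinb9b, intracellular clade B inhibitors, fell, and Serpine2, the secreted inhibitor protease nexin 1, rose. The test was limma on log2(FPKM + 1) over 12500 genes with Benjamini-Hochberg adjustment and a threshold of 0.05. Called members were 18.8% of the 16, and 3.34% of all genes tested were called. In single directions, 1 member was higher against a background of 1.34% and 2 were lower against 1.99%. The groups did not overlap for 4 of the 16 members (25.0%), Serpinb6a being the other one, and for 29.0% of all genes tested. The median difference over the 16 members was -0.12 on the log2 scale, and 0.06 over all genes tested, and without labelled deficient 1 the members' median was 0.02. The split of all calls was 168 higher and 249 lower as deposited, 218 and 211 after rescaling to equal sums, 123 and 391 with median-of-ratios scaling and 131 and 336 with quantile normalization. A pair of members entered the test through 1 group, Serpinb9b through the controls and Serpina9 through 2 labelled deficient libraries, so counts over the 16 are not support for a change in the family.

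**Figure D2:**
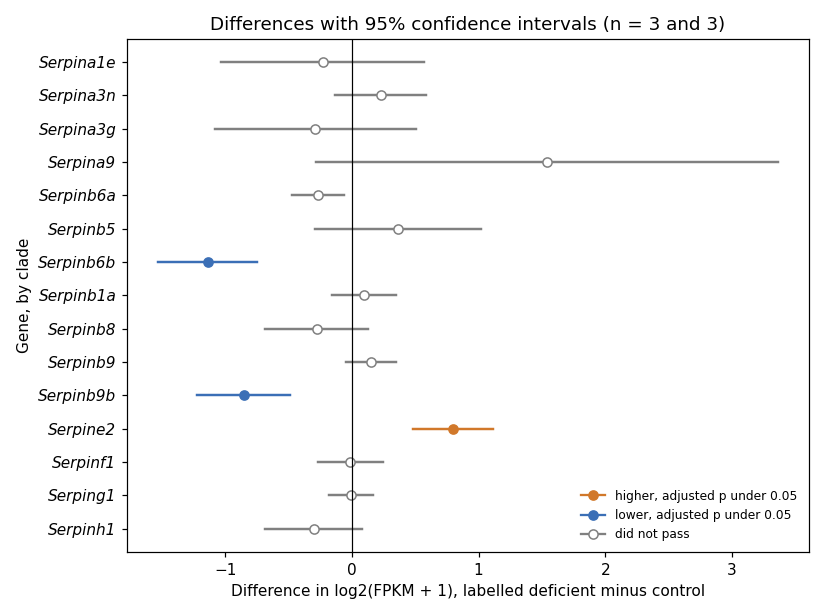
Difference in log2(FPKM + 1), labelled deficient minus control, with its 95% confidence interval, for 15 of the 16 tested Serpin genes (n = 3 and 3). Filled points passed a limma adjusted p of 0.05: Serpinb6b at -1.14, Serpinb9b at -0.85 and Serpine2 at 0.80.

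Clade B of chromosome 13 held both falls. The cluster spans 32842092 to 34002794 (GRCm38, GENCODE M21) with 15 members, of which 5 were tested, 6 lay below 1 FPKM and 4 were listed at 0. Serpinb6b (plus strand, 32965209 to 32979067), a relative of the granule protease inhibitor Serpinb6a, measured 16.4, 24.0 and 23.5 FPKM in control libraries and, in the labelled deficient ones, 9.11, 10.2 and 7.85 FPKM. All 3 of these lay below the lowest control, the mean was 2.36 times lower, and the log2 value fell by 1.14 (SE 0.16, limma adjusted p = 0.021). Serpinb9b (plus strand, 33027416 to 33041884), from the branch of the granzyme B inhibitor Serpinb9, measured 1.87, 2.03 and 1.65 FPKM in control libraries and, in the labelled deficient ones, 0.845, 0.664 and 0.267 FPKM. Again the groups were apart and the mean was 3.12 times lower in FPKM. The log2 difference was -0.85 (SE 0.15, limma adjusted p = 0.040), which the added 1 FPKM makes smaller. An exon of the antisense gene Gm36099 overlaps Serpinb9b.

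Serpinb9 lies between these genes on the same strand (33003250 to 33017957). Its level was 4.79, 5.06 and 4.31 FPKM in the controls and 4.88, 5.59 and 5.59 FPKM in the labelled deficient libraries. The ranges overlapped, and the log2 difference of 0.15 had a 95% confidence interval from -0.04 to 0.35 (limma adjusted p = 0.34). Serpinb6a, at the far end of the cluster (minus strand, 33917918 to 34002794), was the most abundant clade B gene, at 62.9, 69.5 and 63.8 FPKM in the controls and 54.8, 58.4 and 49.1 FPKM in the others. It lay lower in every labelled deficient library but did not pass (log2 difference -0.27, SE 0.09, limma adjusted p = 0.15). Its exons overlap those of Ripk1 and Nqo2 on the other strand, and the sources used here do not say whether counting used strand. Serpinb1a, an inhibitor of neutrophil elastase and related proteases, measured 9.67, 10.50 and 8.04 FPKM in the controls and 10.2, 10.7 and 9.38 FPKM in the others, with overlapping ranges. Neutrophil markers summed to between 4.54 and 15.1 FPKM in the controls and between 2.35 and 16.7 FPKM in the others.

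Within a library, Serpinb6b ran at 0.261, 0.345 and 0.369 of the Serpinb6a level in the controls and at 0.166, 0.174 and 0.160 in the labelled deficient libraries. Serpinb9b ran at 0.390, 0.401 and 0.382 of the Serpinb9 level in the controls and at 0.173, 0.119 and 0.0478 in the others. Both ratios were lower in each labelled deficient library than in any control, at the smallest exact permutation p that 3 against 3 allows (0.1, two-sided, 0.12 adjusted over 6 ratios). Serpinb6b and Serpinb9b were called in these same libraries, so the ratios are not separate support for their falls. Scaling a library by 1 factor leaves such ratios as they are. Of the 50-base windows of the longest coding transcript in GENCODE M21, 3.12% in Serpinb6b and 0.499% in Serpinb9b also occur in a transcript of another gene, and 0 of the 100-base windows do.

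**Figure D3:**
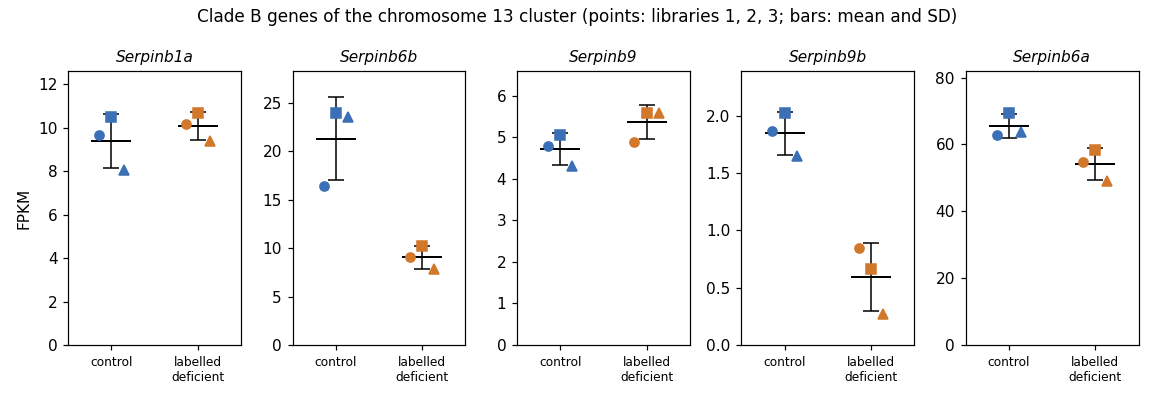
FPKM of the 5 tested clade B genes of the chromosome 13 cluster, in map order, each on its own axis from 0. Points are libraries 1, 2 and 3 (circle, square, triangle) and bars give mean and SD with n = 3. Serpinb6b and Serpinb9b are separated between groups, and Serpinb9, between them on the map, is not.

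The upstream sequences of the 3 called genes are printed because the labels concern a DNA-binding receptor. Beside them stand Serpinb9, the neighbour that did not pass, and Serpina3n, the tested member whose upstream window holds a full receptor palindrome. Each is the 250 bases before the start in RefSeq (GRCm38.p6), 5′ to 3′ on the gene's strand. RefSeq starts can differ from the GENCODE M21 positions given here. By the latter, the windows of Serpine2 and Serpinb9 lie inside the gene, and that of Serpinb6b runs into its first bases. Capitals mark 3 motifs searched on both strands: AGAACA, one arm of the element bound by progesterone and glucocorticoid receptors, the palindrome of that element (GNACA and TGTNC around 3 free bases), and the GC box GGGCGG. The arm can fall inside the palindrome.
Serpinb6b, chr13:32965011-32965260, plus strand: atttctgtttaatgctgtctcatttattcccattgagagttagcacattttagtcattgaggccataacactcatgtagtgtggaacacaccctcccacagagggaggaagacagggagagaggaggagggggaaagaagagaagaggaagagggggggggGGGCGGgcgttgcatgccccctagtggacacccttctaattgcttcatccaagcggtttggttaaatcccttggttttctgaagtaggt
Serpinb9, chr13:33004291-33004540, plus strand: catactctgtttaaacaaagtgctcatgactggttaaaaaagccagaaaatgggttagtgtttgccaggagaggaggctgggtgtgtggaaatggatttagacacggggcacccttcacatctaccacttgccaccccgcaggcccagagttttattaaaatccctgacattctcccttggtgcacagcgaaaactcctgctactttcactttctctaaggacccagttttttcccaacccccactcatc
Serpinb9b, chr13:33027164-33027413, plus strand: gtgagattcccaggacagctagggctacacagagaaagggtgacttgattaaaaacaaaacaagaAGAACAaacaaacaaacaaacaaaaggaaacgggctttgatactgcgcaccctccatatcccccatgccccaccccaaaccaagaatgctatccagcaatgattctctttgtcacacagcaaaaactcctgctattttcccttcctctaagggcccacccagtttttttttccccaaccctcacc
Serpine2, chr1:79858666-79858915, minus strand: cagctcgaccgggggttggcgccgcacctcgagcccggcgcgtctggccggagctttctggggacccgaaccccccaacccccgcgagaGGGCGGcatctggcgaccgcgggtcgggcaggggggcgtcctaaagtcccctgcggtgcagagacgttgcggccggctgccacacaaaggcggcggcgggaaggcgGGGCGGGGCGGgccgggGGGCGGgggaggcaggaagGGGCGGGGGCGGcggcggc
Serpina3n, chr12:104406458-104406707, plus strand: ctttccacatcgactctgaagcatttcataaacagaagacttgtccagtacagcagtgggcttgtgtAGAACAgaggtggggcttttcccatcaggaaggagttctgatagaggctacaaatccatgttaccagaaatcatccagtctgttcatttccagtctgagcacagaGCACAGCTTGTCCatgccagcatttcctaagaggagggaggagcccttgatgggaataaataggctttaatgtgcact

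The table held an upstream window for 12 of the 16 tested members. AGAACA was found in 16.1% of 32851 windows of this length, the palindrome in 0.387% and the GC box in 32.7%. Serpinb9b has 1 match to AGAACA, beginning at position -185 from the start. Serpina3n has 1 such match at -183 and a palindrome at -78, and Serpina1e has 1 match to AGAACA at -224. Serpina3n and Serpina1e were not called, and no other window of these 12 genes holds either receptor motif. Serpinb6b has 1 GC box at -89 and neither receptor motif. The Serpine2 window was 78.8% G and C with 6 matches to the GC box and neither receptor motif. Serpinb9 has none of the 3 motifs. Serpinb9 and Serpinb9b had the most similar windows among the 66 pairs of these 12 genes, with 61.6% of bases identical in a global alignment against a median of 50.4%. These matches describe letters in a window and say nothing of binding.

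Of the markers of other cells, those of smooth muscle and some of those of mast cells were lower together with Serpinb6b and Serpinb9b. Of 8 mast cell markers 6 were tested and 4 fell, Cpa3 going from between 6.53 and 8.79 FPKM to between 0.355 and 1.02 FPKM. These 4 (Cpa3, Cma1, Mcpt4 and Tpsb2) had means between 0.648 and 0.790 FPKM in the labelled deficient libraries. They entered the test through the controls, so the count is not support for a change in the list. The other 2 did not pass: Kit had means of 1.26 and 1.22 FPKM (limma adjusted p = 0.90), and Hdc overlapped between groups and was highest in labelled deficient 3, at 49.9 FPKM. Tpsab1 and Ms4a2, too low to be tested, were also lower in every labelled deficient library. Tpsab1 went from between 0.274 and 0.409 FPKM to at most 0.069 FPKM, and Ms4a2 from between 0.183 and 0.309 FPKM to at most 0.029 FPKM. The summed mast cell list, in which Hdc is the most abundant gene, ranged from 42.6 to 75.1 FPKM in the controls and from 10.98 to 55.2 FPKM in the others. All 8 smooth muscle markers fell, and their sum went from between 8070 and 9848 FPKM to between 3261 and 3845 FPKM. Natural killer cell markers summed to between 4.29 and 5.74 FPKM and between 5.52 and 10.7 FPKM, of which 2 of 8 were tested and 0 called (0 with an unadjusted p under 0.05). Macrophage markers summed to between 913 and 1094 FPKM in the controls and between 961 and 1063 FPKM in the others, with 0 of 8 called (0 with an unadjusted p under 0.05). Decidual stroma markers, which share Des with the smooth muscle list, summed to between 1077 and 1533 FPKM against between 410 and 522 FPKM. Des, at 900 to 1140 FPKM against 320 to 397 FPKM, made up most of these sums and was the 1 of 7 tested that fell. Of the others, Prl8a2, Hand2 and Cryab were lower in every labelled deficient library. Bmp2 and Wnt4 were higher in each, and Hoxa10 and Alpl overlapped. The part of any of these cells in the falls was not tested. In bulk tissue fewer cells of a type and less RNA per cell cannot be told apart.

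Clade E held the rise. Serpine2 (chromosome 1, minus strand, 79794197 to 79861180), which inhibits thrombin, urokinase and tissue plasminogen activator, measured 30.7, 35.2 and 24.4 FPKM in control libraries and, in the labelled deficient ones, 52.9, 54.7 and 49.9 FPKM. The groups were apart, the mean was 1.74 times higher, and the log2 difference was 0.80 (SE 0.13, limma adjusted p = 0.033). Epithelial markers summed to between 643 and 708 FPKM in the controls and between 811 and 1035 FPKM in the others. Of these, 2 of 8 rose (Krt19 and Cdh1), while 1.34% of all genes tested were called higher. Epcam was higher in every labelled deficient library and did not pass. Krt8, Krt18, Cldn3, Cldn4 and Cldn7 overlapped between groups. Mesothelial markers summed to between 111 and 124 FPKM against between 171 and 222 FPKM (Krt19, in both lists, was the 1 of 6 that rose). Without Krt19 the other 5 mesothelial markers summed to between 33.1 and 48.8 FPKM and between 31.9 and 42.1 FPKM. Erythroid markers summed to between 3.12 and 6.36 FPKM against between 13.3 and 25.7 FPKM, with 1 of 1 tested higher. The part of these cells in the rise of Serpine2 was not tested.

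The plasminogen activators that Serpine2 inhibits were measured in the same libraries. Plau, urokinase, measured 132, 143 and 229 FPKM in control libraries and, in the labelled deficient ones, 69.1, 53.7 and 121 FPKM. It lay lower in each of these than in any control but did not pass (log2 difference -1.08, SE 0.34, limma adjusted p = 0.15). Without labelled deficient 3 it passed, at -1.40 with a limma adjusted p of 0.049. Plaur, the urokinase receptor, measured 10.1, 13.4 and 8.61 FPKM against 5.58, 7.79 and 5.82 FPKM (log2 difference -0.65, limma adjusted p = 0.11). Plat, tissue plasminogen activator, measured 21.4, 25.4 and 18.9 FPKM against 20.9, 28.4 and 21.7 FPKM, with overlapping ranges. Serpine2 ran at 0.233, 0.247 and 0.107 of the Plau level in the controls and at 0.766, 1.02 and 0.413 in the others, and at 1.43, 1.39 and 1.29 times the Plat level against 2.53, 1.92 and 2.30 times. Neither pair of ranges overlapped (exact two-sided permutation p = 0.1 for each, 0.12 adjusted over 6 ratios). Serpine2 was called in these same libraries, so the ratios are not separate support for its rise. Plg, the plasminogen gene, was at most at 0.010 FPKM, and the clotting inhibitors Serpinc1 and Serpind1, chosen after their values were seen, were at most at 0.201 and 0.074 FPKM. Of the 11 tested genes of the plasminogen activation list, 0 were called by limma and 3 had an unadjusted p under 0.05 (Plaur, Plau and Vldlr), with a median log2 difference of -0.11. The 3 are 27.3% of the list, and 21.5% of all genes tested had such a p, so the share was near the background.

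**Figure D4:**
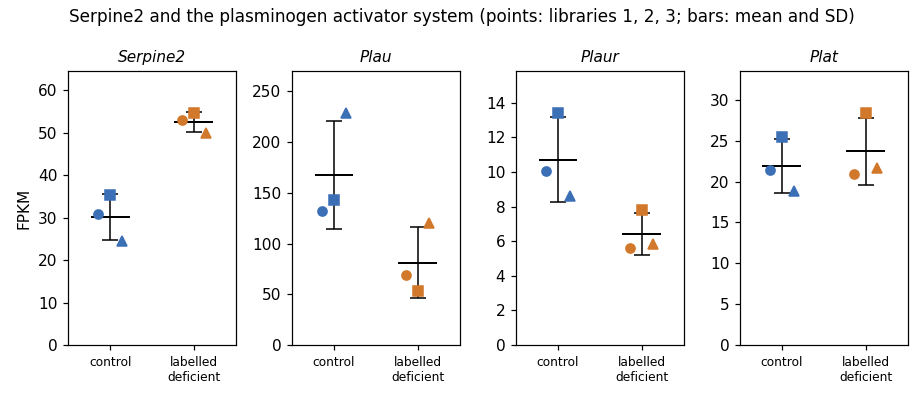
FPKM of the clade E inhibitor Serpine2, urokinase (Plau), its receptor (Plaur) and tissue plasminogen activator (Plat), each on its own axis from 0. Points are libraries 1, 2 and 3 (circle, square, triangle) and bars give mean and SD with n = 3. Serpine2 is higher and Plau and Plaur are lower in all 3 labelled deficient libraries, and of these only Serpine2 passed.

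Clade A held the most abundant serpin and the least even one. Serpina1e (chromosome 12, 103946931 to 103958975), an alpha-1-antitrypsin gene, measured 574, 601 and 604 FPKM in control libraries and, in the labelled deficient ones, 289.7, 591 and 753 FPKM. The controls lay close together, and the labelled deficient libraries lay on both sides of them (log2 difference -0.23, 95% confidence interval from -1.03 to 0.57, limma adjusted p = 0.73). In labelled deficient 1, where Serpina1e was lowest, its paralogs Serpina1a, Serpina1b and Serpina1c, chosen after their values were seen, stood at 0.280, 0.362 and 0.915 FPKM. In the other 5 libraries they reached at most 0.070, 0.057 and 0.019 FPKM. Serpina1d, a further paralog that shares windows with Serpina1e, did not stand out there. It was at 0.094 FPKM in labelled deficient 1 and between 0.056 and 0.207 FPKM in the other libraries. All of these paralogs stayed below 1 FPKM in every library, far below Serpina1e. Serpina1e shares 35.6% of its 50-base windows and 14.8% of its 100-base windows with other genes, so the split among these paralogs is uncertain. The 8 markers of liver and yolk sac summed to between 29.9 and 35.1 FPKM in the controls and between 30.1 and 35.5 FPKM in the others, most of it Trf, the transferrin gene, at between 28.1 and 34.1 FPKM. Of 2 tested, 0 were called by limma and 1 had an unadjusted p under 0.05. That one was Alb, which lay between 0.354 and 0.448 FPKM in the controls and between 0.912 and 4.25 FPKM in the others (limma adjusted p = 0.21). It entered the test through the labelled deficient libraries, so the count is not support for a change in the list. Over all genes tested, 21.5% had such an unadjusted p. Apoa1, not tested, went the other way, from between 0.137 and 0.357 FPKM to at most 0.027 FPKM. Afp reached at most 0.234 FPKM and Apoa4 was listed at 0. The part of such cells in the Serpina1e values was not tested.

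Serpina9, known as a gene of germinal centre B cells, measured 0.265, 0.177 and 0.488 FPKM in control libraries and, in the labelled deficient ones, 3.52, 9.70 and 0.118 FPKM. It was above every control in 2 of these and below every control in the third, and it did not pass (log2 difference 1.54, SE 0.76, limma adjusted p = 0.30). Exons of Gm28577 overlap Serpina9 on the same strand. Without labelled deficient 3 the log2 difference was 2.41 with a limma adjusted p of 0.028. Serpina9 entered the test through labelled deficient 1 and 2, which that fit keeps, so its p is not support for a rise. Serpina3n, a secreted acute-phase inhibitor of granzyme B and other proteases, measured 46.7, 52.3 and 45.7 FPKM in control libraries and, in the labelled deficient ones, 68.5, 57.6 and 45.7 FPKM (log2 difference 0.23, limma adjusted p = 0.43). Serpina3g, an interferon-inducible inhibitor of cathepsins in lymphocytes, measured 5.49, 9.04 and 3.53 FPKM against 3.41, 6.65 and 3.81 FPKM. Both pairs of ranges overlapped. Serpina3g shares 16.02% of its 50-base windows with other genes, mainly of its own cluster, and Serpina3n 6.90%. Their cluster on chromosome 12 (103614786 to 104414329) holds 25 Serpin members, of which 4 were tested.

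Clades F, G and H had 1 tested gene each, all abundant and none called. Serpinf1, pigment epithelium-derived factor and an inhibitor of new vessel growth, measured 179, 165 and 188 FPKM in control libraries and, in the labelled deficient ones, 159, 169.9 and 200.2 FPKM. Its log2 difference was -0.01 with a 95% confidence interval from -0.27 to 0.24, and its sign turned with rescaling to equal sums and with quantile normalization. Serping1, the C1 inhibitor that restrains complement C1r and C1s and plasma kallikrein, measured 212, 187 and 207 FPKM against 203, 200.5 and 200.1 FPKM. Its log2 difference was -0.01 (95% confidence interval from -0.18 to 0.17), and its sign turned in the same 2 scalings. Its target proteases C1s1 and C1ra had means of 72.9 ± 9.1 and 22.6 ± 1.7 FPKM in the controls and 77.7 ± 6.4 and 22.9 ± 0.9 FPKM in the others (SD, n = 3 each).

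Serpinh1, known as Hsp47, the chaperone that folds procollagen in the endoplasmic reticulum, measured 528, 504 and 375 FPKM in control libraries and, in the labelled deficient ones, 328, 413 and 393 FPKM. Control 3 lay within the range of the other group, and the log2 difference of -0.30 (95% confidence interval from -0.69 to 0.08) did not pass (limma adjusted p = 0.33). Of 22 genes of procollagen and its folding, all tested, 9 (40.9%) had an unadjusted limma p under 0.05, against 21.5% of all genes tested. Their median log2 difference was -0.17. After adjustment 2 fell and 0 rose, while 1.99% of all genes tested were called lower and 1.34% higher. The 2 were Col4a2 (274 ± 8 to 197 ± 6 FPKM, SD, n = 3 each, limma adjusted p = 0.020) and Col4a1 (387 ± 16 to 281 ± 17 FPKM, limma adjusted p = 0.035), chains of basement membrane collagen. Col4a1 did not pass when any 1 library was left out (limma adjusted p from 0.0502 to 0.146), and Col4a2 did not pass without library 1 or library 2 of either group (up to 0.104). Smooth muscle markers, whose cells also make such collagen, fell with these genes (8 of 8, with the sums given above). Endothelial markers summed to between 144 and 156 FPKM in the controls and between 130.3 and 178 FPKM in the others, with 0 of 8 called (0 with an unadjusted p under 0.05). The part of either cell type was not tested. Crtap and Ppib, partners in prolyl hydroxylation of collagen, differed by -0.26 and -0.35 on the log2 scale and did not pass.

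The remaining clade B genes lie in a cluster on chromosome 1 (106861173 to 107610484) with 12 members, 2 of them tested. Serpinb5, maspin, a non-inhibitory serpin of epithelial cells, measured 21.2, 15.7 and 13.8 FPKM in control libraries and, in the labelled deficient ones, 19.8, 15.8 and 32.2 FPKM. Its highest value came from labelled deficient 3 and the other values overlapped (log2 difference 0.36, 95% confidence interval from -0.29 to 1.02). Serpinb8, an inhibitor of furin, measured 6.62, 7.61 and 4.45 FPKM against 4.57, 5.23 and 4.76 FPKM (log2 difference -0.28, limma adjusted p = 0.39). Furin measured 37.9 ± 2.7 and 48.4 ± 4.8 FPKM (SD, n = 3 each, limma adjusted p = 0.12). Serpinb13 and the 4 Serpinb3 genes of this cluster were listed at 0.

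Below 1 FPKM, 15 of the 35 detected members had a mean of at least 0.1 FPKM and 20 had less. Of these, 3 reached 1 FPKM in a library, and they were chosen after their values were seen: Serpina3f (1.46 FPKM in control 2), Serpina3i (1.29 FPKM in labelled deficient 2) and Serpini1, neuroserpin (1.05 FPKM in labelled deficient 3). The other Serpinb9 paralogs with reads, Serpinb9e, Serpinb9f and Serpinb9g, had their highest values in control 2, Serpinb9e being the highest at 0.552 FPKM. In that library the trophoblast list was also highest, at 2.31 FPKM summed, against between 0.431 and 1.37 FPKM in the others. Prl2c2 gave 1.48 FPKM of that sum, and Prl7d1 was also highest there. Tpbpa, Ascl2 and Syna were higher in control 1 than in control 2, so the members of the list did not all peak there. The part of such cells in the Serpinb9 paralog values was not tested. Serpinb2, plasminogen activator inhibitor 2, lay between 0 and 0.398 FPKM.

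Among proteases outside the plasminogen system, 16 granule proteases and cathepsins were tested, of which 3 fell and 0 rose. They were the mast cell proteases Mcpt4 (7.98 ± 0.43 to 0.677 ± 0.292 FPKM, SD, n = 3 each), Tpsb2 (5.56 ± 0.62 to 0.790 ± 0.244 FPKM) and Cma1 (7.48 ± 1.66 to 0.764 ± 0.335 FPKM). Their limma adjusted p lay between 0.0022 and 0.0045, and each kept its call whichever 1 library was left out. All 3 entered the test through the controls, so the count over the 16 is not support for a change in the list. Gzmb, the target of Serpinb9 and Serpina3n, measured 0.447, 0.791 and 0.341 FPKM in control libraries and, in the labelled deficient ones, 0.790, 0.865 and 1.49 FPKM, below the limit for testing. Neutrophil elastase (Elane) and cathepsin G (Ctsg) were at most at 0.088 and 0.272 FPKM. Of 21 tested clotting, complement and surface proteases, limma called 0, and 6 (28.6%, near the 21.5% of all genes) had an unadjusted p under 0.05. Their median log2 difference was 0.20, and the smallest p was that of F3, tissue factor (770 ± 103 to 1200 ± 189 FPKM, SD, n = 3 each, limma adjusted p = 0.082). Klk1, tissue kallikrein, measured 1021 ± 222 and 1872 ± 454 FPKM (limma adjusted p = 0.10), and Htra1 measured 172 ± 46 and 85.1 ± 25.1 FPKM (limma adjusted p = 0.11).

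Protease inhibitors of other families gave a mixed picture. Of 21 tested, Itih5 fell and A2m rose, with a median log2 difference of -0.12. Over all genes tested, 1.99% were called lower and 1.34% higher. An unadjusted limma p under 0.05 was found for 10 of the 21 (47.6%), against 21.5% of all genes tested. A2m, alpha-2-macroglobulin, a broad protease trap, measured 5.89 ± 1.22 and 17.7 ± 6.2 FPKM (SD, n = 3 each), 3.00 times higher (limma adjusted p = 0.037), and passed with 1 library left out in the fit without labelled deficient 3 alone (up to 0.125 in the others). Itih5, an inter-alpha-trypsin inhibitor heavy chain, was 5.44 times lower (limma adjusted p = 0.0022) and passed whichever 1 library was left out. Wfdc1, an inhibitor of the whey acidic protein family, and Tfpi2, a Kunitz inhibitor of plasmin and trypsin, differed by -0.64 and -0.46 and did not pass (limma adjusted p = 0.061 and 0.11). Without control 3 both passed, at 0.049 and 0.036.

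The calls of the 3 serpins depended on which libraries were in the fit. Their directions held in all 15 alternatives that could be fitted for Serpinb6b and Serpine2 and in 14 for Serpinb9b, but none passed in every fit with 1 library left out. Serpinb6b passed without control 1 or labelled deficient 3 and did not without control 2, control 3, labelled deficient 1 or labelled deficient 2 (limma adjusted p up to 0.086). Serpine2 passed without control 2, control 3 or labelled deficient 3 and did not in the other 3 (up to 0.12). Serpinb9b passed without labelled deficient 3 alone (up to 0.16) and was also lost with pseudocounts of 0.1 (0.076) and 0.5 (0.051) and with rescaling to equal sums (0.061). With no filter on low values Serpinb6b alone remained, at 0.042. Without labelled deficient 1 or labelled deficient 2, 0 members were called, against 1.04% and 1.48% of all genes. Without labelled deficient 3, or without the third library of both groups, 4 members were called, Serpina9 joining the 3, against 4.15% and 10.2% of all genes. Serpina9 had entered the test through labelled deficient 1 and 2, which both fits keep, so its call is not support for a rise.

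**Figure D5:**
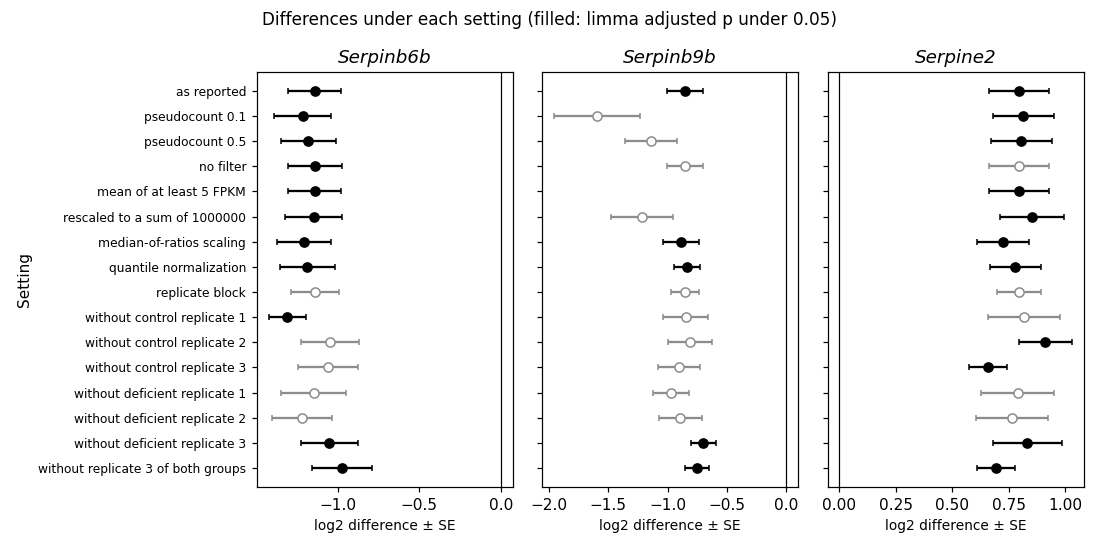
Difference in log2 (labelled deficient minus control) with its standard error for Serpinb6b, Serpinb9b and Serpine2 under each setting, filled where limma's adjusted p was under 0.05. Every difference keeps its sign, and each gene has at least 1 fit without a single library in which it did not pass.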

How the data were processed

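The table that the authors deposited holds FPKM for 24964 gene symbols in 6 uterine samples, 3 per group. Build mm10, STAR 2.7.0f, DESeq2 1.24.0 and cutadapt 2.7 are named, per the submitters' processing notes, with no role or order. The sources used here do not give the counting program, annotation, strand setting or FPKM formula. Each column carries a name found in 1 sample's labels, and 0 columns were left over.

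The 12500 genes averaging 1 FPKM or more were tested with limma 3.58.1 (R 4.3.3, eBayes with trend) on log2(FPKM + 1), labelled deficient minus control, without covariates, with Benjamini-Hochberg adjustment over all of them. Log2 differences are on that scale and understate changes of low genes; levels and times higher or lower are in FPKM. Positions came from GENCODE M21, which held all 64 members, and upstream sequences from RefSeq. FPKM of low genes step by whole reads but depend on gene length, so reads were not recovered and no count model was fitted. Named genes were members with a mean of at least 1 FPKM and up to 4 genes per partner list with the smallest p; known partners of a named Serpin could be given whatever their p. Of the tested members, 1 that was not called is counted but not reported here. Members and lists were chosen with earlier results of these data known. Alternatives were 2 other pseudocounts, 2 other filters, 3 scalings, the replicate number as a block, leaving out each library and leaving out library 3 of both groups.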

Additional observations from a re-analysis of the deposited data

How the results depend on the processing

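As reported, 417 genes and 3 Serpin genes were called. Leaving out 1 library gave between 99 and 519 genes, and between 0 and 4 Serpin genes. It gave between 0 and 1 called gene in the lists of plasminogen activation (0 as reported), clotting and surface proteases (0) and procollagen folding (2), and between 1 and 3 in that of other inhibitors (2). Without library 3 of both groups 1274 genes were called, with 2, 5, 8 and 6 in these 4 lists. With no filter 1 Serpin gene and 1 procollagen gene were called. A mean of at least 5 FPKM removed all 3 called granule proteases from the test, leaving 0 called, and removed Serpina9 and Serpinb9b too. Rescaling to equal sums and quantile normalization left 1 procollagen gene each, and the latter called 2 surface proteases.

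Same-numbered samples did not deviate together (r of -0.136, 0.0789 and -0.132 across genes, and between -0.132 and 0.2 for other pairs). The numbers thus showed no pairing, but correlations over all genes in so few samples cannot exclude one. With the replicate number as a block, 143 genes and 0 Serpin genes were called, with 0 procollagen genes and 1 other inhibitor.

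Signs turned only for differences that did not pass. Serpinf1 and Serping1 were at 0.034 and 0.041 after rescaling to equal sums and at 0.073 and 0.12 with quantile normalization, and Pgr (0.046 as reported) at -0.0188 under median-of-ratios scaling and at -0.0054 after quantile normalization. Without library 3 of both groups Serpinb5 was at -0.041 and Serping1 at 0.016. Without 1 library, Serpina1e ranged from -0.52 to 0.17, Serpina3g from -0.57 to 0.0079, Serpinb1a from -0.0017 to 0.17, Serpinf1 from -0.11 to 0.060, Serping1 from -0.058 to 0.030, Plat from -0.029 to 0.21 and Pgr from -0.078 to 0.23. Apart from the smaller numbers of genes or samples in some fits, the cause of these shifts was not tested.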
